A study of Arabidopsis thaliana with 12 samples.

Results

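The data compare rosettes of Arabidopsis thaliana Col-0 plants that received a live slurry of Malaka soil (HO-Malaka) with rosettes of plants that received the same slurry after autoclaving (AX-Malaka). They are 6 of the 12 RNA-seq libraries of the study, 3 in each group, and each library is a pool of 8 rosettes from 4 FlowPots (a gnotobiotic system in which plants grow on sterilised peat) of 1 microbox. All plants were wild type, the labels give their age as 21 days, and all FlowPots were fed with LS nutrient solution. The other 6 libraries come from HO and AX plants given a second soil, MSU. They share the gene filter, the normalization and the estimate of spread, so they bear on every adjusted p and call below. Beyond that they are used to ask whether an effect differed between the soils. Titles and columns name the soil Malaka, an undisturbed grassland soil, whereas the sample descriptions call it Laurel. A live slurry brings a whole soil community, so the comparison does not separate bacteria from other organisms.

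The table lists 33610 genes, and 17317 nuclear genes had enough counts to be tested. Totals lay between 12718856 and 16327630 counts in HO-Malaka libraries and between 10211008 and 16236426 in AX-Malaka libraries, of which nuclear messenger RNA made up 25.2% to 33.6% and 31.0% to 34.7%. HO-Malaka replicate 2 stood lowest, with 25.2% nuclear messenger RNA and a normalization factor of 0.788, and ribosomal RNA took 9.88% to 21.8% in HO-Malaka and 13.1% to 20.4% in AX-Malaka libraries. Values below are CPM, read counts scaled to library size after TMM normalization, and log2FC is the log2 ratio of HO-Malaka over AX-Malaka from edgeR. The standard error (SE) given with it was derived, as the absolute log2FC over the square root of the F value of the test. Genes were called at a log2FC of at least 1 in either direction and an adjusted p (Benjamini-Hochberg) under 0.05. At genes without an AX count, bounds ("at least") are computed as if the 3 AX-Malaka libraries held 3 counts together, with the HO-Malaka count taken as exact. Where they held 1 to 3, the ratio of the groups' summed counts, scaled by normalized library totals, is given with an exact binomial interval. Intervals and bounds cover counting error only. In whole rosettes, a change in the number of cells of a type and a change in RNA per cell cannot be told apart.
The libraries had the markers of a leaf. RBCS1A, for the small subunit of Rubisco, had 3079 to 3684 CPM in HO-Malaka and 3756 to 3789 CPM in AX-Malaka libraries, and none of the 8 mesophyll, guard cell and phloem markers was called. Of the root markers, TIP2;3, COBL9 and CASP1 had 0 to 2 counts each in HO-Malaka and 0 to 3 in AX-Malaka libraries, and PYK10 had 122 to 158 CPM against 107 to 129 CPM without a call (log2FC 0.28). The seed storage genes SESA1 and CRU1 and the late senescence gene SAG12 had no count, whereas SAG13, which is induced in senescence and defence, had 78 counts in HO-Malaka and 1 in AX-Malaka libraries and was called. Floral genes were near 0, the highest being AG with 10 counts in HO-Malaka and 0 in AX-Malaka libraries and PI with 9 and 8.

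Plant cells detect microbes at the surface through receptor kinases and receptor-like proteins that bind flagellin, chitin, fatty acid metabolites and other microbial patterns. Cytoplasmic kinases, an oxidative burst, calcium and MAP kinases carry the signal to the nucleus, where WRKY and MYB factors act on defence genes, an output known as pattern-triggered immunity (PTI). WRKY factors bind the W box, TGA factors bind as-1 elements, and the factors of abscisic acid signalling bind the ABRE.

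Of the 17317 genes, 220 (1.27%) were higher in HO-Malaka plants and 62 (0.358%) were lower. These shares are the background for the counts of called members below. At any fold, 437 genes passed the FDR in the higher and 332 in the lower direction, and 8782 had a positive log2FC. The higher genes had a median log2FC of 2.16 and the lower ones of -1.40, whereas the median of all nuclear genes was 0.01. For 45 of the 220 no more than 3 counts were found in the AX-Malaka group, and for 22 of these there were none. The groups did not overlap at 214 of the 220 and at 60 of the 62, where all tested genes gave 10.3% with HO-Malaka above and 9.22% with HO-Malaka below. With each pool as a replicate, p-values measure the spread between pools.

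The W box was found in more promoters of higher genes than of lower or all genes. In the 250 bases before the gene start, TTGACC or TTGACT occurred on either strand at 128 of 219 higher genes (58.4%) and 16 of 58 lower genes (27.6%), against 27.9% of all 17056 promoters read. The ABRE core ACGTG was most frequent at lower genes, with 28 of 58 (48.3%), and stood at 30.1% of the higher ones and 23.0% of all. The as-1 core TGACG was present at 27.4% of the higher, 19.0% of the lower and 19.2% of all genes, the CGCG box core CGCGT at 12.3%, 1.72% and 7.36%, the GCC box GCCGCC at 3.65%, 0% and 1.99%, and the evening element AAATATCT at 5.02%, 5.17% and 4.82%. These shares are descriptions of letters and were not tested. Each motif was sought on both strands, and none contains another, although as-1 and ABRE cores can share bases.

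**Figure D1:**
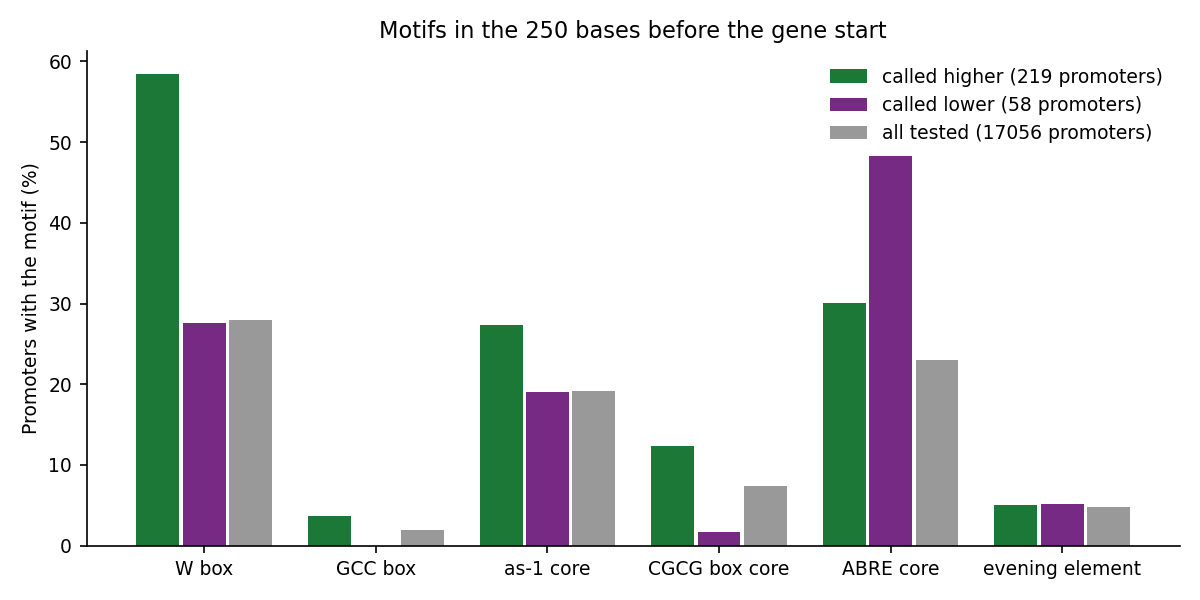
Share of promoters with each motif in the 250 bases before the gene start, in percent, for 219 genes higher in HO-Malaka plants (green), 58 lower genes (purple) and all 17056 tested genes with a promoter (grey). The W box stands at 58.4% of the higher genes and the ABRE core at 48.3% of the lower ones.

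Promoters of 6 called genes, chosen by hand and not by a rule, are given 5′ to 3′ from the RefSeq TAIR10.1 genome. All 6 come from the minus strand, with the motif in capitals. The first 4 belong to genes higher in HO-Malaka plants and show their W boxes, which number 2 in FRK1, 3 in AT5G64120 and WRKY30 and 4 in CRK11. They do not stand for all higher genes, of which 128 of 219 had a W box. AZI3 (AT4G12490), MYB15, CYP71A12 and AT1G51890 are among those without one.
FRK1 promoter (chr2:8329945-8330194): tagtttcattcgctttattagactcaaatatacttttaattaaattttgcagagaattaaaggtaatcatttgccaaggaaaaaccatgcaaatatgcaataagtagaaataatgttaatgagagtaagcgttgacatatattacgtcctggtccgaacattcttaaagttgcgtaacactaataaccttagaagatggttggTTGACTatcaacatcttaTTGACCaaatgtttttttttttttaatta
AT5G64120 promoter (chr5:25661008-25661257): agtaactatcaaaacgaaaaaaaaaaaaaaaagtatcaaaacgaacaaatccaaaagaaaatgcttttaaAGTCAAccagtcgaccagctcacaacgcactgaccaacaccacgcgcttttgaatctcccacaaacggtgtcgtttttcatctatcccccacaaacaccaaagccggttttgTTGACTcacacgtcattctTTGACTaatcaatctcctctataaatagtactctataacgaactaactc
WRKY30 promoter (chr5:8154711-8154960): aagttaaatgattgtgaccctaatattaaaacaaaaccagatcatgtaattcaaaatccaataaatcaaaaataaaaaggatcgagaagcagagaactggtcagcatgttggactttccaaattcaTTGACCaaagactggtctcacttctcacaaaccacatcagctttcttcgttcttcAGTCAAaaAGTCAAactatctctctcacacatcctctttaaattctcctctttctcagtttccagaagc
CRK11 promoter (chr4:12143859-12144108): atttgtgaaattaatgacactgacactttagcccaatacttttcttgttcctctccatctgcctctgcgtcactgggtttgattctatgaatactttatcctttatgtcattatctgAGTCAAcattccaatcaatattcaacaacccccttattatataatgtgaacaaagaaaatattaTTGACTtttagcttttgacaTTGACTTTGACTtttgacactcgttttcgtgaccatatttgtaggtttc
The last pair comes from lower genes and shows the single as-1 core of CYP81D11 and the 3 ABRE cores of RAB18. Other motifs are not marked. The CYP81D11 promoter also held a single CACGTG, which reads as an ABRE core on both strands and so was counted as 2.
CYP81D11 promoter (chr3:10790554-10790803): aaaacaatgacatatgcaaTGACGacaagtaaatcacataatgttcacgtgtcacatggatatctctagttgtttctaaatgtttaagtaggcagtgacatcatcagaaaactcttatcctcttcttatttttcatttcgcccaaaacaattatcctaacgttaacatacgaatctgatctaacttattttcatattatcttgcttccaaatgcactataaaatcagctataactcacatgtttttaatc
RAB18 promoter (chr5:26519448-26519697): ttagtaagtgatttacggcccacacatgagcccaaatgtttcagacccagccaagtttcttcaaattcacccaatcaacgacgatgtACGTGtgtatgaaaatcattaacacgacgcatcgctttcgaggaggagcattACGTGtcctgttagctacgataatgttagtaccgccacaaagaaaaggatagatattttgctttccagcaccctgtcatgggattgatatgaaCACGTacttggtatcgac

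Of 22 pattern receptors and co-receptors, all tested, 2 were higher (9.09%, against 1.27% of all genes) and none lower, with a median log2FC of 0.32. LORE, which senses bacterial 3-hydroxy fatty acids, had 5.47, 6.68 and 5.29 CPM in HO-Malaka libraries against 2.32, 2.89 and 3.13 CPM in AX-Malaka libraries (log2FC 1.06, SE 0.22, adjusted p = 0.00315). The groups did not overlap, but the log2FC fell to just under 1 without HO-Malaka replicate 2 (0.96) or AX-Malaka replicate 1 (0.94). RLP23, the receptor of the nlp20 peptide of microbial NLP proteins, had 1.16, 1.32 and 1.62 CPM against 0, 0.126 and 0 CPM, a ratio of 26.0 (95% interval 6.87 to 219.9). The flagellin receptor FLS2 had a log2FC of 0.95 (adjusted p = 0.000183) and MIK2 one of 0.75 (adjusted p = 8.60e-05), both past the FDR but under the fold threshold. The elongation factor receptor EFR (0.93) and the chitin co-receptor CERK1 (0.61) did not pass the FDR.
Of 26 receptor-proximal kinases, oxidases and MAP kinases tested, 1 was higher (3.85%, against 1.27% of all genes) and none lower (median log2FC 0.16). It was BIK1, the cytoplasmic kinase that pattern receptors activate, with 5.18, 5.08 and 6.14 CPM against 3.19, 2.39 and 2.12 CPM (log2FC 1.08, SE 0.21, adjusted p = 0.00166), without overlap. Its log2FC was 0.99 without HO-Malaka replicate 3 and 0.98 without AX-Malaka replicate 3. The NADPH oxidase gene RBOHD had a log2FC of 0.48 past the FDR, and the MAP kinase genes MPK3 (0.25), MPK4 (0.00) and MPK6 (0.15) did not pass it. The MAP kinase gene MPK11 was too low to be tested, with 17 counts in HO-Malaka libraries and none in AX-Malaka libraries.

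Of 17 early output genes of PTI 15 were tested, 9 were higher (60.0%, against 1.27% of all genes) and none was lower, with a median log2FC of 1.43. FRK1, a receptor kinase gene long used as a PTI marker (chromosome 2, 8326049 to 8329944), had 3.49, 3.29 and 4.59 CPM in HO-Malaka libraries and no count in AX-Malaka libraries, which makes it at least 48.7-fold higher. MYB15, a factor of inducible lignification, had 0.756, 0.940 and 1.48 CPM and no AX count and was at least 13.4-fold higher. WRKY30 had 2.21, 0.846 and 2.05 CPM against 0, 0.126 and 0 CPM, a ratio of 34.7 (95% interval 9.27 to 291). In each of these genes every HO library lay above every AX library. The list is made of genes known from flagellin-treated plants, and several of them were named by the study from these same libraries, so their direction is not independent evidence. PHI-1, also an early flagellin-responsive gene, went the other way at -0.65 (adjusted p = 0.0345), and WRKY22 (0.33) and WRKY29 (0.06) did not pass the FDR. Too low to be tested were NHL10, with 27 counts in HO-Malaka and 0 in AX-Malaka libraries, and PGIP1, with 2 in each group.
The WRKY family as a whole had 7 of 37 tested members higher (18.9%, against 1.27% of all genes) and none lower. A positive log2FC was found at 30 of the 37 (median 0.45), against 8782 of all 17317 genes. The most abundant called member was WRKY33, a regulator of camalexin synthesis, with 50.1, 38.3 and 61.5 CPM against 30.3, 23.3 and 18.7 CPM (log2FC 1.05, SE 0.17, adjusted p = 0.000215). WRKY33 did not overlap between the groups, but its log2FC was 0.87 without HO-Malaka replicate 3 and 0.91 without AX-Malaka replicate 3. WRKY48 (log2FC 2.15) and WRKY53, a regulator of senescence (1.57), were higher as well, and so were WRKY6, WRKY26 and WRKY60, which lay between 1.09 and 1.66. MYB51, an activator of indole glucosinolate genes, had 10.5, 7.05 and 11.5 CPM against 2.96, 3.90 and 4.04 CPM (log2FC 1.43, SE 0.23, adjusted p = 0.000134). Over the MYB family 2 of 37 were higher and 2 lower (5.41% each, against 1.27% and 0.358% of all genes). The lower ones were MYB47 (-1.87) and MYB108 (-3.47), and the lower count was 1 without HO-Malaka replicate 1 or 3 or AX-Malaka replicate 2. The AP2/ERF family had 4 of 39 higher (10.3%), but only 2 without HO-Malaka replicate 1 or without AX-Malaka replicate 2. Among the 4 was ERF5, an ethylene response factor, at 1.72 (SE 0.35, adjusted p = 0.00267).

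Most tested receptor kinases of a single block of chromosome 1 were higher in HO-Malaka plants. Of 13 LRR-I kinase genes with a malectin-like domain around AT1G51800, 8 were tested. Of these, 6 were higher (75.0%, against 1.27% of all genes), and the median log2FC of the 8 was 4.51. Several of these kinases were named by the study from these same libraries, and the list was chosen with earlier results known. Members at or near 0 in AX-Malaka libraries passed the gene filter only through HO libraries, and members low in both groups were not tested. The share is therefore not independent evidence. IOS1 (AT1G51800), which associates with pattern receptors, had 5.12, 3.48 and 6.78 CPM in HO-Malaka against 0.559, 0.252 and 0 CPM in AX-Malaka libraries (log2FC 4.14, SE 0.46, adjusted p = 4.57e-07). AT1G51890 had 2.85, 3.20 and 2.54 CPM against 0, 0 and 0.101 CPM, a ratio of 109 (95% interval 19.1 to 4323). AT1G51790, AT1G51850 and AT1G51860 were likewise at 0 or near 0 in AX-Malaka libraries, whereas AT1G51820 had a log2FC of 2.18. The tested members without a call, AT1G51805 (0.08) and AT1G51830 (-0.02), had log2FC near 0. The neighbours are similar in sequence, so reads shared between them could be split, and how such reads were counted is not given in the sources used here.
The cysteine-rich receptor-like kinases (CRK) had 6 of 27 higher (22.2%, against 1.27% of all genes). A positive log2FC was found at 24 of the 27 (median 0.69), against 8782 of all 17317 genes. CRK5 had 2.73, 2.16 and 4.66 CPM against 0.559, 0.252 and 0.101 CPM (log2FC 3.33, SE 0.48, adjusted p = 4.36e-05). CRK11 (1.06), whose promoter held 4 W boxes, CRK6 (2.61) and CRK14 (1.92) were higher as well, and neither group overlapped the other at any of these 4. CRK11 lost its call without HO-Malaka replicate 3 (0.79) or AX-Malaka replicate 1 (0.94), and 9 members were called without HO-Malaka replicate 2.
Receptor-like proteins had 4 of 38 higher and 1 lower (10.5% and 2.63%, against 1.27% and 0.358% of all genes). The higher ones named here are RLP23, RLP33 (2.43) and RLP52 (2.31), and the lower one is RLP29 (-1.47), whose call was lost with each library left out. Without HO-Malaka replicate 1 or 3 or AX-Malaka replicate 2 the count of higher ones was 2. Lectin kinases had 4 of 43 higher (9.30%) and 1 lower (2.33%), with none lower without HO-Malaka replicate 3. NLR-type resistance genes, which encode intracellular receptors of pathogen effectors, had 5 of 110 higher (4.55%) and none lower. Without AX-Malaka replicate 2 the NLR count was 3. AT5G41740 and AT5G41750, neighbouring TIR-type NLR genes, had 19.0, 16.7 and 17.4 CPM against 10.1, 7.80 and 7.48 CPM and 9.07, 7.05 and 10.7 CPM against 3.11, 3.21 and 3.44 CPM. MLO12, a member of the family in which loss of MLO2 and its relatives gives mildew resistance, had 5.87, 5.55 and 8.33 CPM against 0, 0.126 and 0.101 CPM, a ratio of 84.5 (95% interval 28.6 to 412).

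**Figure D2:**
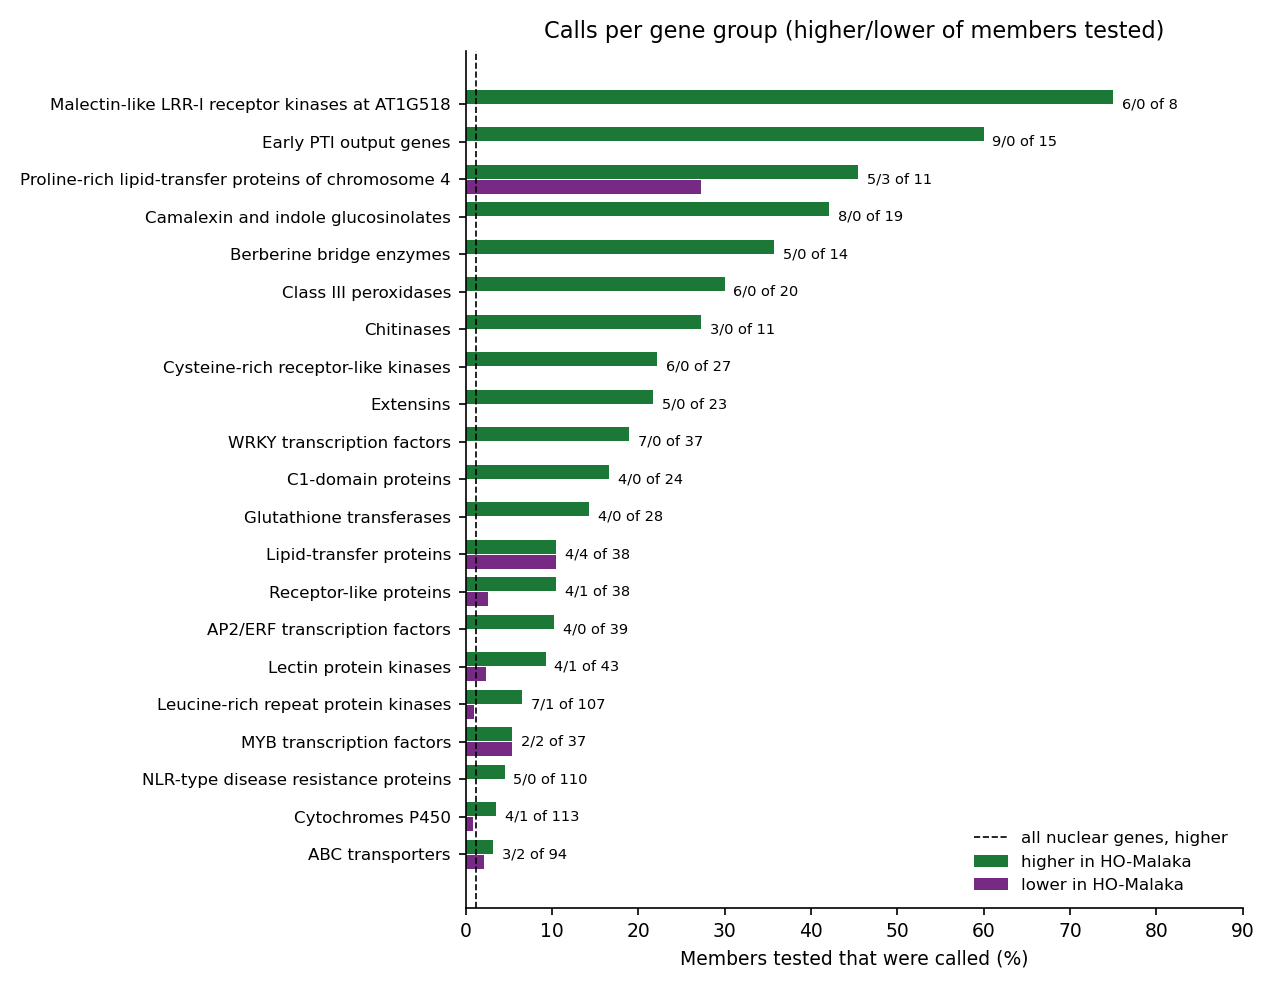
Percent of tested members called higher (green) or lower (purple) in HO-Malaka plants, for lists and families with at least 3 called members. Labels give the number higher, the number lower and the number tested, and the dashed line marks the 1.27% of all nuclear genes that were higher.

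Of 19 tested genes of camalexin and indole glucosinolates, 8 were higher (42.1%, against 1.27% of all genes) and none lower (median log2FC 0.46). The study named FOX1, CYP71A12 and CYP71B15 from these same libraries, and the list was chosen with earlier results known, so this share is not independent evidence. The core enzymes that make the indole glucosinolate skeleton were not called: CYP79B2 (-0.37), CYP79B3 (-0.36), CYP83B1 (-0.12), SUR1 (0.16) and UGT74B1 (-0.23). Of the listed enzymes that modify this skeleton, CYP81F2, IGMT1 and IGMT2 were called. IGMT3, which is outside the list and was named after its values were seen, was called higher as well. IGMT5 was not called, with 0.523, 0.658 and 0.988 CPM in HO-Malaka and 0.879, 0.252 and 0.505 CPM in AX-Malaka libraries, which overlapped (log2FC 0.43). CYP81F2, which hydroxylates indole glucosinolates, had 6.86, 7.24 and 10.9 CPM against 2.08, 0.692 and 1.72 CPM (log2FC 2.54, SE 0.32, adjusted p = 4.56e-06). The methyltransferases that act after it followed, with IGMT2 at 5.70, 5.64 and 8.68 CPM against 0.639, 0.503 and 0.202 CPM (log2FC 3.81) and IGMT1 at 15.4, 13.4 and 15.1 CPM against 5.99, 4.72 and 6.97 CPM (log2FC 1.34). PEN3, the ABC transporter that exports their products, was the most abundant higher gene of the comparison, with 188, 179.8 and 215 CPM against 94.0, 92.3 and 93.8 CPM (log2FC 1.06, SE 0.11, adjusted p = 1.04e-07). Its groups were well apart, but the log2FC was 0.98 without HO-Malaka replicate 3. PEN2, the myrosinase of the same route, had 0.68 (adjusted p = 7.37e-05).
The genes of the branch towards camalexin and cyanogenic indoles differed among themselves. CYP71A12 had 2.21, 0.564 and 2.75 CPM and FOX1 1.69, 2.54 and 4.66 CPM in HO-Malaka libraries, with no count in AX-Malaka libraries, so they were at least 25.2-fold and 37.1-fold higher. GSTF6, which conjugates the camalexin intermediate to glutathione, had 6.40, 6.68 and 11.2 CPM against 0.399, 0.692 and 0.707 CPM (log2FC 3.74). CYP71A13, a close relative of CYP71A12 in the camalexin route, was not called and overlapped between the groups, with 0.756, 0.564 and 0.282 CPM in HO-Malaka and 2.00, 0.252 and 1.01 CPM in AX-Malaka libraries (log2FC -0.95, adjusted p = 0.496). GGP1, which acts after GSTF6, had a log2FC of 0.10. CYP71B15, for the last steps of camalexin synthesis, had too few counts to be tested, with 23 counts in HO-Malaka libraries and none in AX-Malaka libraries (at least 6.99-fold higher). Of 8 tryptophan synthesis genes none was called, though ASB1 (0.75) and TSB1 (0.48) passed the FDR. None of 21 tested aliphatic glucosinolate and myrosinase genes was called (median -0.17), and ESM1 (-0.50, adjusted p = 0.00184) was the member with the smallest p.

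The proline-rich lipid-transfer protein genes of chromosome 4 split in opposite directions. Of 17 such genes 11 were tested, 5 were higher and 3 lower (45.5% and 27.3%, against 1.27% and 0.358% of all genes). The study named AZI1 and AZI3 from these same libraries, and the list was chosen with earlier results known. Members without an AX-Malaka count passed the gene filter only through HO libraries, so the share of higher genes is not independent evidence. AZI1 (AT4G12470), known for its part in systemic immunity, had 4.83, 5.17 and 5.15 CPM in HO-Malaka libraries against 0.160, 0.189 and 0.202 CPM in AX-Malaka libraries (log2FC 4.72, SE 0.51, adjusted p = 4.42e-07). Its neighbours AZI3 (AT4G12490), AT4G12500 and EARLI1 (AT4G12480) had no AX count and were at least 60.5-fold, 28.9-fold and 25.5-fold higher. The further neighbours AT4G12510 to AT4G12550 had 1 count or none in each group, so the change stood in 4 adjacent genes. Of AZI3's 786 exonic bases 282 overlap AT4G12495 on the other strand.
In a second cluster on the same chromosome, AT4G22470 rose to 1.74, 2.63 and 3.81 CPM in HO-Malaka libraries, against 0.399, 0.126 and 0.404 CPM in AX-Malaka libraries (log2FC 3.19). The next genes fell. AT4G22485 (chromosome 4, 11844506 to 11846476) had 7.27, 58.7 and 73.8 CPM in HO-Malaka libraries and 351, 383 and 343 CPM in AX-Malaka libraries (log2FC -2.96, SE 0.58, adjusted p = 0.00145). AT4G22505 had 2.73, 35.4 and 29.5 CPM in HO-Malaka libraries and 215, 229 and 187 CPM in AX-Malaka libraries (log2FC -3.27, adjusted p = 0.000584), and AT4G22490 had 0.698, 7.71 and 7.34 CPM in HO-Malaka and 19.0, 23.8 and 24.4 CPM in AX-Malaka libraries (log2FC -2.18). The AX-Malaka libraries lay close together, whereas HO-Malaka replicate 1 lay far below the other HO-Malaka libraries at each of these 3. Pools given autoclaved MSU slurry were spread as widely, with 34.2, 318 and 429 CPM at AT4G22485 and 19.7, 160.0 and 223 CPM at AT4G22505 in AX-MSU libraries. Of the 1971 exonic bases of AT4G22485, 1842 overlap AT4G22475, both genes lying on opposite strands. In AT4G22505, 1720 of 1864 such bases overlap AT4G22495 in the same way. DESeq2 did not call AT4G22485 (adjusted p = 0.0545).

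Secreted enzymes and cell wall proteins made up a further part of the rise. Class III peroxidases, which make and use hydrogen peroxide in the wall, had 6 of 20 higher and none lower (median -0.03). That is 30.0%, against 1.27% of all genes, and the higher count was 3 without AX-Malaka replicate 2 or 3. AT5G64120 had 14.9, 13.0 and 20.5 CPM against 0.240, 0.314 and 0.505 CPM (log2FC 5.54, SE 0.35, adjusted p = 1.76e-11), and AT2G37130 7.44, 4.89 and 6.99 CPM against 1.68, 2.89 and 1.82 CPM (log2FC 1.57). Chitinases had 3 of 11 higher (27.3%). They were led by AT2G43620 with 7.09, 3.86 and 8.82 CPM against 0, 0.189 and 0 CPM, a ratio of 87.6 (95% interval 29.7 to 427). The calls of AT2G43590, at which the groups overlapped, and of AT2G43570 were less firm, and the count was 1 without HO-Malaka replicate 3 or any AX-Malaka replicate. PR4, a chitin-binding protein of ethylene response, had 8.96, 9.31 and 11.6 CPM against 2.32, 3.65 and 3.13 CPM and was called.
Berberine bridge enzymes, a family of oxidases, had 5 of 14 higher (35.7%, against 1.27% of all genes) and none lower. AT1G30720 had 4.54, 4.14 and 5.15 CPM against 0.240, 0.440 and 0.707 CPM (log2FC 3.35) and AT1G30730 3.55, 3.48 and 4.16 CPM against 0, 0.252 and 0.606 CPM (log2FC 3.78). Glutathione transferases had 4 of 28 higher (14.3%), all of the phi class, and 4 with each library left out. GSTF2 had 35.7, 26.8 and 35.9 CPM against 12.9, 13.0 and 10.8 CPM (log2FC 1.42, SE 0.14, adjusted p = 4.41e-08), and its exons share 890 of their 1471 bases with AT4G02510 in antisense. GSTF7 (4.48), GSTF6 (3.74, given above) and GSTF3 (2.37) were the others.
Extensins, the hydroxyproline-rich proteins that are cross-linked into walls, had 5 of 23 higher (21.7%, against 1.27% of all genes) and none lower (median -0.04). EXT4 had 73.2, 110.0 and 128 CPM against 29.8, 37.8 and 38.3 CPM (log2FC 1.55, SE 0.21, adjusted p = 1.65e-05), and EXT3 16.5, 19.9 and 23.6 CPM against 4.55, 7.61 and 5.86 CPM (log2FC 1.71). AT3G28550 was at 0 in AX-Malaka libraries and spread widely over HO-Malaka libraries, at 2.50, 0.188 and 6.70 CPM. Expansins and xyloglucan endotransglucosylases, which loosen walls, had no member higher and 1 lower each, of 17 and 16 tested. That is 5.88% and 6.25%, against 0.358% of all genes. The lower members were EXPA14 (-2.05) and XTH16 (-1.09), and EXPA14 lost its call in 5 of the 6 fits with a library left out.

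**Figure D3:**
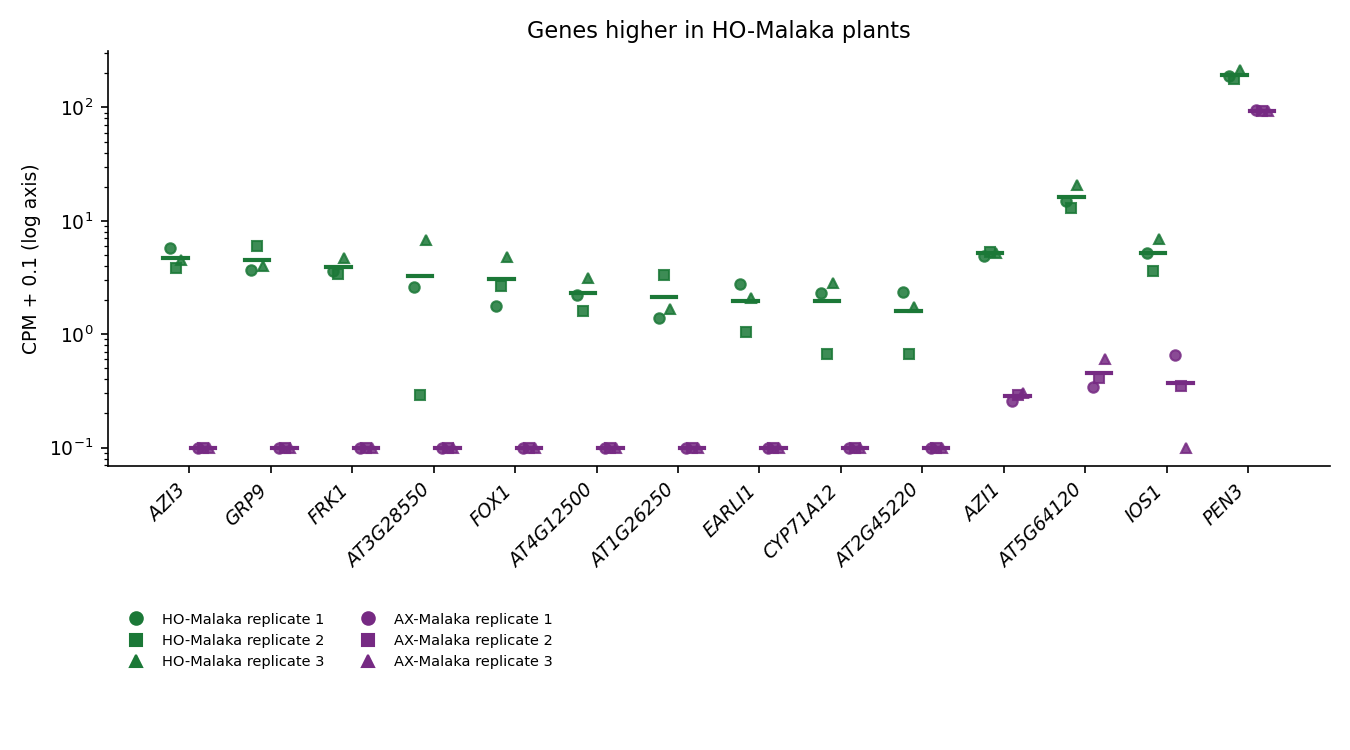
CPM plus 0.1 on a log axis for each library (symbols, HO-Malaka green, AX-Malaka purple, lines at the group mean) at the 10 genes with the largest log2FC by the rule for named genes and at AZI1, AT5G64120, IOS1 and PEN3. Points at 0.1 are libraries without a count, which holds for all AX libraries of the first 10 genes.

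Of 20 tested genes of salicylate and N-hydroxypipecolate, 2 were higher (10.0%, against 1.27% of all genes) and none lower (median 0.16). ACD6, an ankyrin protein of salicylate signalling, had 33.4, 18.5 and 22.7 CPM against 11.8, 8.99 and 10.1 CPM (log2FC 1.29, SE 0.20, adjusted p = 0.000107). CBP60G, an activator of salicylate synthesis, lay at the threshold (log2FC 1.00, adjusted p = 0.0272), and DESeq2, among others, put it just under 1. ICS1, for the first step of that synthesis, had 0.04. PR1 had 8 and PR2 28 counts in HO-Malaka libraries and none in AX-Malaka libraries, at least 2.43-fold and 8.51-fold higher, and both were too low to be tested.
No jasmonate gene of 21 was called. LOX2, the plastid lipoxygenase, had 87.1, 101 and 76.2 CPM against 144, 134 and 146 CPM (log2FC -0.69, adjusted p = 0.000334), whereas LOX4 went the other way (log2FC 0.95, adjusted p = 0.00694), both past the FDR but under the fold threshold. Ethylene response factors of group IX and their targets had 2 of 8 higher, ERF5 and PR4, and all 8 had a positive log2FC (median 0.70). The gene for the ethylene precursor enzyme ACS7, named after its values were seen, had 1.28, 1.32 and 1.98 CPM and no AX count (at least 19.5-fold higher).
Of 17 nitrogen genes 2 were higher (11.8%, against 1.27% of all genes) and none lower. They were the cytosolic glutamine synthetase GLN1;1 with 9.07, 9.21 and 10.9 CPM against 3.91, 3.40 and 1.82 CPM (log2FC 1.64, adjusted p = 1.23e-05) and the nitrate transporter NRT1.5 (log2FC 1.45, adjusted p = 0.00845), which was lost without HO-Malaka replicate 3 or AX-Malaka replicate 1. All 10 phosphate starvation genes tested had a positive log2FC (median 0.70), but none passed the FDR, and PHO1;H1 had the smallest p with 0.75 (adjusted p = 0.0783). None of 10 iron genes, 14 sulfur genes, 13 clock genes and 13 sugar starvation genes was called. Neither was any of 22 genes of the Calvin cycle and photorespiration (median -0.09), of 27 light-harvesting proteins (-0.04) or of 312 ribosomal proteins (-0.11). The cytokinin list had 1 higher, ARR5 (1.04), and 1 lower, AHP4 (-2.27), of 8 (12.5% each), and neither call held without HO-Malaka replicate 3.

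Among the lower genes, CYP81D11, a cytochrome P450 induced by xenobiotics and jasmonate, fell to 1.05, 1.88 and 1.41 CPM in HO-Malaka libraries against 12.4, 13.0 and 11.6 CPM in AX-Malaka libraries (log2FC -3.14, SE 0.21, adjusted p = 4.07e-11). It was the only called gene among 8 detoxification genes, and CYP81D8 of the same list had 1.04 without passing the FDR.
PDF1, expressed in the protoderm, had 27.1, 47.0 and 50.1 CPM against 100.2, 98.6 and 89.6 CPM (log2FC -1.23, SE 0.19, adjusted p = 9.90e-05), and its log2FC was -0.99 without HO-Malaka replicate 1. CDEF1, a cutin-degrading GDSL enzyme, had 0.407, 3.95 and 3.67 CPM against 9.82, 11.1 and 10.8 CPM, and AT3G05727 0.291, 2.16 and 3.67 CPM against 8.87, 10.5 and 9.50 CPM. At each of these, as at the lipid-transfer cluster, HO-Malaka replicate 1 was the lowest Malaka library, and AX-MSU replicate 1 was likewise below the other AX-MSU libraries, with 1.13, 6.77 and 7.96 CPM at CDEF1 and 1.55, 8.08 and 11.2 CPM at AT3G05727. DESeq2 did not call CDEF1 (adjusted p = 0.232) or AT3G05727 (adjusted p = 0.145).
Of 14 tested genes of abscisic acid, cold and dehydration, 1 was lower (7.14%, against 0.358% of all genes) and none higher. The median log2FC was -0.40, and 4 lay past the FDR in the lower direction, against 332 of all 17317 genes. RAB18, the dehydrin whose promoter is shown above, had 4.01, 2.16 and 3.88 CPM against 8.63, 6.86 and 9.30 CPM (log2FC -1.25, SE 0.21, adjusted p = 0.000305). ABCG22, a transporter of guard cells, had 13.0, 12.6 and 17.1 CPM against 31.1, 27.5 and 32.9 CPM (log2FC -1.09), while the guard cell markers MYB60 (-0.10), FAMA (-0.10) and KAT1 (-0.23) were not called.
Of 12 flavonoid and anthocyanin genes, 11 had a negative log2FC (median -0.47). None was higher and 2 were lower (16.7%, against 0.358% of all genes). They were DFR, with 1.05, 2.44 and 2.68 CPM against 5.19, 6.86 and 6.16 CPM (log2FC -1.60, SE 0.28, adjusted p = 0.000549), and LDOX, whose HO-Malaka libraries all lay below its AX-Malaka libraries (log2FC -1.27, adjusted p = 0.0495), both for the late steps towards anthocyanin. The call of LDOX was lost, for example, without HO-Malaka replicate 1 (-0.91), whereas DFR kept its call with each library left out. Among abundant genes, the germin GER3 had 26.8, 22.0 and 26.5 CPM against 60.4, 55.1 and 45.4 CPM (log2FC -1.09) and did not overlap between the groups. Several of the other lower genes by size (AT3G27250, AT2G16367, AT3G42835.1, AT3G28915.1 and the snoRNA AT5G66564) had under 3 CPM in every library, and only low counts stand behind them.

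**Figure D4:**
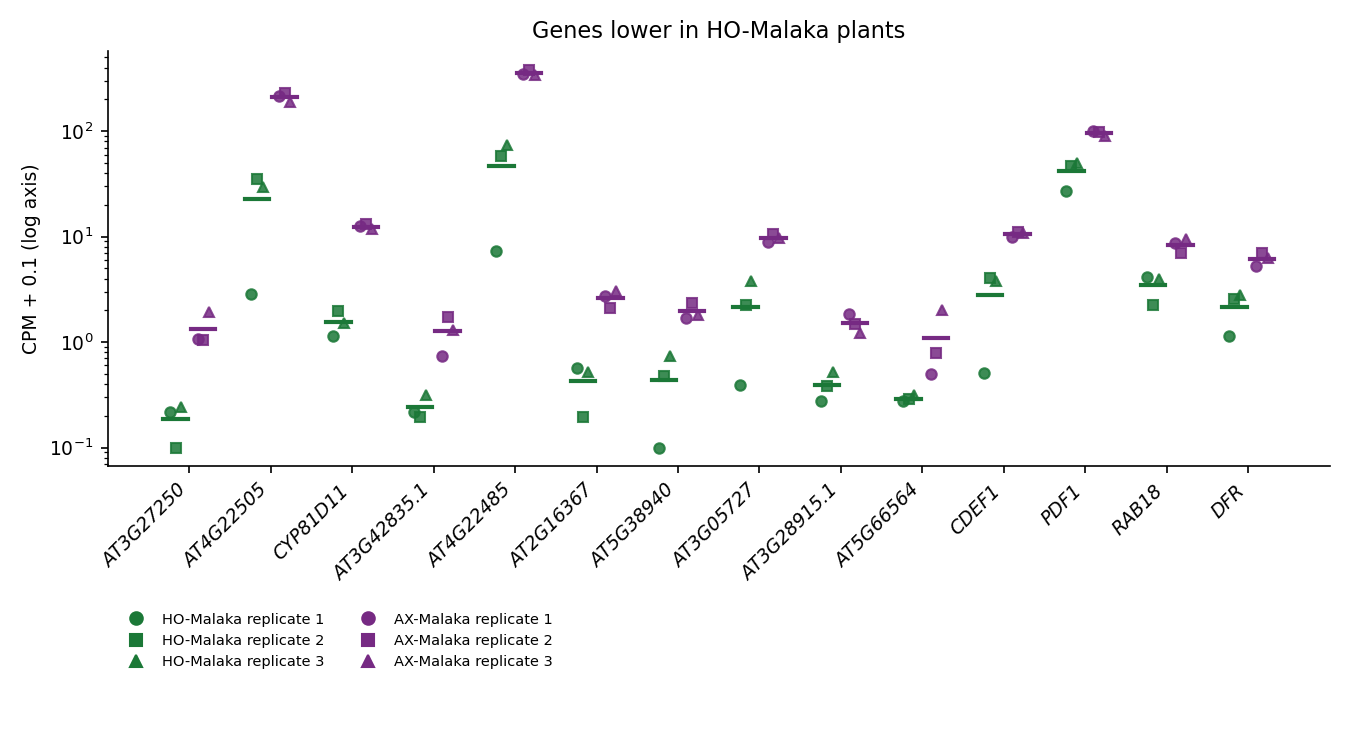
CPM plus 0.1 on a log axis for each library (symbols, HO-Malaka green, AX-Malaka purple, lines at the group mean) at the 10 genes with the most negative log2FC by the rule for named genes and at CDEF1, PDF1, RAB18 and DFR. HO-Malaka replicate 1 (circle) is far below the other HO libraries at AT4G22505, AT4G22485, AT3G05727 and CDEF1.

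C1-domain proteins, a cysteine- and histidine-rich family, had 4 of 24 higher (16.7%, against 1.27% of all genes) and none lower (median 0.04). AT2G17740 had 0.814, 1.03 and 1.48 CPM and AT2G44380 0.698, 0.564 and 0.776 CPM in HO-Malaka libraries, with no count in AX-Malaka libraries, so they were at least 14.0-fold and 8.82-fold higher. AT2G44370, next to AT2G44380, had 0.989, 1.69 and 0.988 CPM against 0, 0 and 0.101 CPM, a ratio of 44.7 (95% interval 7.66 to 1801), and AT2G27660 had 1.98, 1.79 and 2.26 CPM against 0.240, 0.755 and 0 CPM (log2FC 2.38). Neither group overlapped the other at any of these 4. Cytochromes P450 had 4 of 113 higher (3.54%) and 1 lower. Of 34 arabinogalactan proteins, glycosylated proteins of the wall and membrane, 1 was higher and 1 lower (2.94% each). All genes gave 1.27% and 0.358%. The family had a median of -0.27, and 7 members passed the FDR in the lower direction, against 332 of all 17317 genes. GDSL lipases had 1 of 43 lower (2.33%) and none higher, with 7 past the FDR in the lower direction. None of 204 U-box and ARM repeat ligases and 143 F-box proteins was called.

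The effect of the live slurry was compared with that of MSU soil to see where it differed between the soils. The difference itself passed an FDR of 0.05 at 49 of the 17317 genes (0.283%), among them 4 of the 220 and 3 of the 62. The 220 had a median log2FC of 1.74 between HO-MSU and AX-MSU plants and the 62 one of -0.50, and 209 and 51 had the same sign there. The share with the same sign over all genes was not counted. GRP9, a glycine-rich protein, had 3.55, 5.92 and 3.88 CPM in HO-Malaka and no count in AX-Malaka libraries, against 4.89, 11.8 and 4.30 CPM in HO-MSU and 3.22, 16.9 and 9.58 CPM in AX-MSU libraries. EXO and EXL5, of a family of wall proteins tied to brassinosteroid growth, were lower with Malaka and not called with MSU (log2FC 0.10 and 0.09). EXO had 12.9, 9.87 and 13.9 CPM in HO-Malaka and 39.4, 25.9 and 29.9 CPM in AX-Malaka libraries, against 13.6, 11.9 and 11.1 CPM in HO-MSU and 9.48, 11.0 and 13.7 CPM in AX-MSU libraries. EXL5 had 24.5, 21.6 and 22.9 CPM in HO-Malaka and 58.1, 45.4 and 56.4 CPM in AX-Malaka libraries, against 26.0, 25.3 and 23.4 CPM in HO-MSU and 22.5, 17.6 and 30.2 CPM in AX-MSU libraries. At both genes, the AX-Malaka libraries stood apart from the other 9, and at GRP9 they were the only libraries without a count. AT1G75490, an AP2/ERF gene of the DREB type, was higher with Malaka (log2FC 1.05) and lower with MSU (-1.04).

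**Figure D5:**
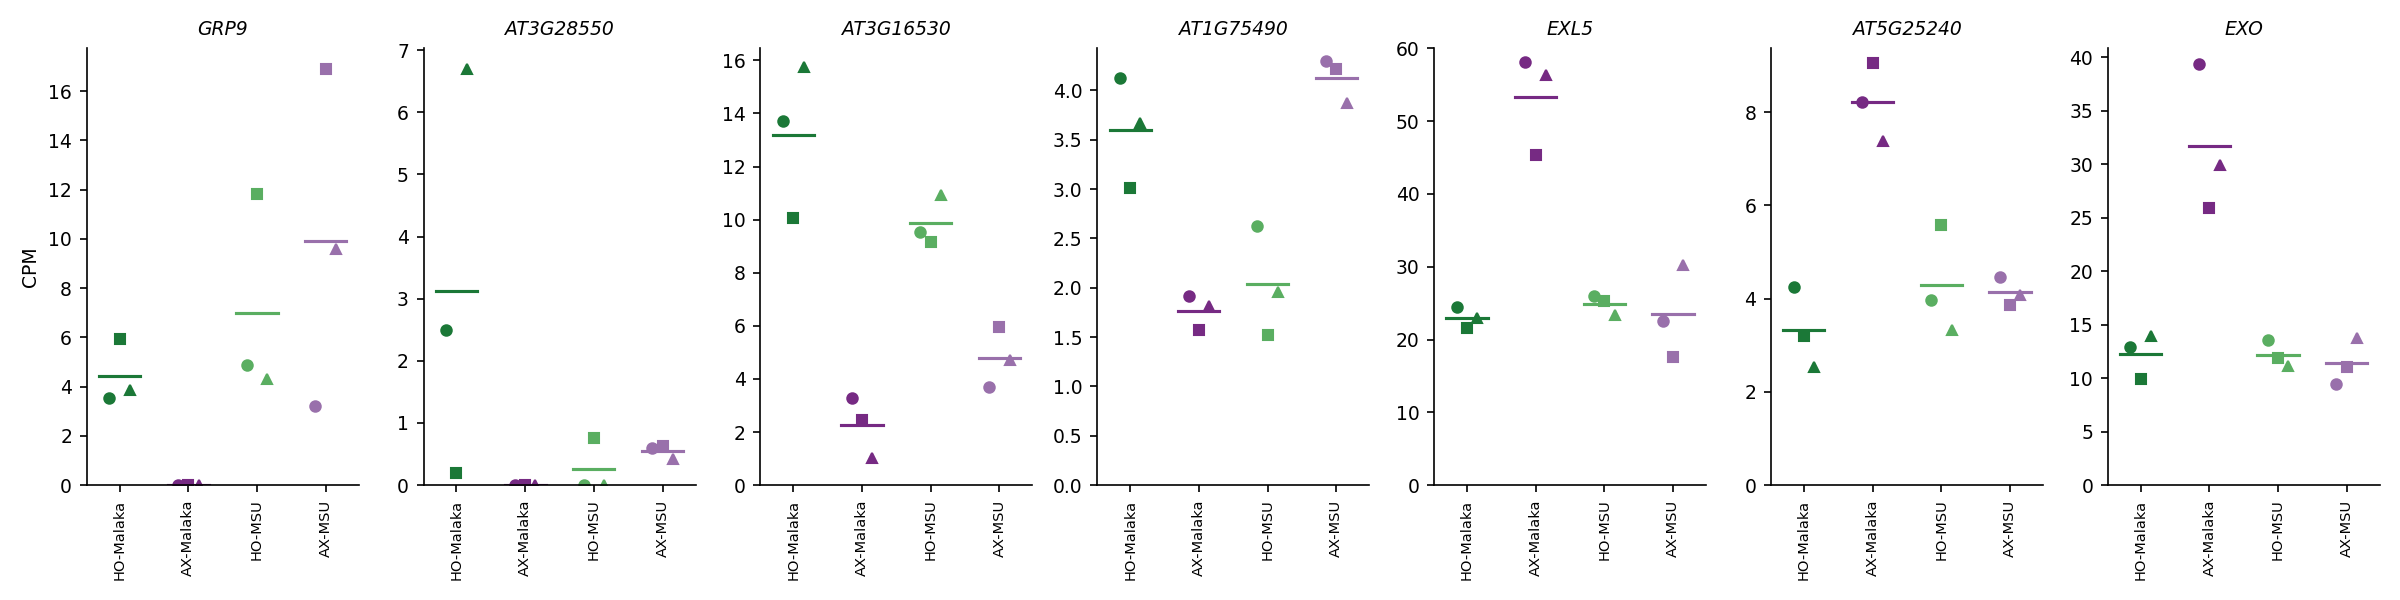
CPM per library in HO-Malaka, AX-Malaka, HO-MSU and AX-MSU plants (symbols are replicates, lines are group means) at the 7 called genes whose HO effect differed between the soils. At EXL5, AT5G25240 and EXO the 3 AX-Malaka libraries lie above all other 9 libraries.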

How the data were processed

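Per the labels and the study's methods, 12 libraries were trimmed with Trimmomatic 0.39, mapped with STAR to TAIR10 and counted per gene with featureCounts. The authors deposited raw counts, which are whole numbers and not normalized. The strand setting of the counting and the treatment of reads with several places are not given in the sources used here. 0 columns of the table were left unused. The members and gene lists were chosen with earlier results of these data known.

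The 17588 genes that passed filterByExpr (minimum count 10, minimum total 15, groups of 3) were tested with edgeR 4.0.16 in R 4.3.3 (glmQLFit and glmQLFTest after TMM) on all 12 libraries in 4 groups, and p-values were adjusted over all of them. Of these, 17317 are nuclear and are reported. A pool of 8 rosettes is 1 replicate. DESeq2 1.42.0 was an alternative, as were other normalizations and filters, a fold threshold inside the model, the 6 Malaka libraries alone, the fit without organelle and ribosomal RNA genes, a replicate block and each library left out. The code was tested on simulated counts.

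Genes were named by rule: among called genes whose groups do not overlap, the 10 largest and 10 most negative log2FC with a mean of at least 1 CPM in the higher group, the 5 most abundant in each direction, and from each of 26 lists and 57 families the 4 called members with the smallest p (up to 2 for a list without a call). AT4G12510 to AT4G12550, ACS7, the genes listed for their lack of calls, and the genes that differ between the soils were chosen after their values were seen. So were the called genes IGMT3, WRKY6, WRKY26, WRKY60, AT1G51820, AT1G51860, AT4G22470 and AT4G22490, which the rule does not name. The promoters printed above were chosen by hand, not by the rule. Families were matched to names and products of the RefSeq annotation, which holds 28932 of the 33610 IDs. Promoters are the 250 bases before the gene start in TAIR10.1, whose nuclear chromosomes were taken as those of TAIR10. Bounds take 3 counts over the AX group and the HO count as exact, and intervals are exact binomial at 95%.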

Additional observations from a re-analysis of the deposited data

Results flagged for a closer look

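At 7 called genes the effect of the live slurry differed between the soils (interaction test of edgeR, FDR under 0.05 over all genes tested). The difference, as log2FC with Malaka minus log2FC with MSU, was 9.45 for GRP9 (adjusted p = 0.000612), 9.39 for AT3G28550 (adjusted p = 0.0406), 1.47 for the legume lectin AT3G16530 (adjusted p = 0.0406) and 2.08 for AT1G75490 (adjusted p = 0.0032). It was -1.29 for EXL5 (adjusted p = 0.000308), -1.37 for AT5G25240 (adjusted p = 0.0406) and -1.46 for EXO (adjusted p = 0.000451). The AX-Malaka libraries were at 0 for GRP9 and AT3G28550, so those 2 fitted differences depend on the prior count and are no measured fold. GRP9, AT1G75490, EXL5 and EXO kept the call in all 14 alternatives run. AT3G28550 kept it in 8 of 12, and AT3G16530 and AT5G25240 in 9 of 14 each.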

How the results depend on the processing

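Testing the fold threshold inside the model left 57 genes higher and 6 lower, of the 220 and 62. The 62 lower genes became 40 without HO-Malaka replicate 1 and 41 without AX-Malaka replicate 2, and lay between 40 and 66 over the 6 libraries left out. The 220 higher genes lay between 165 and 262. The 49 genes that differed between the soils became 14 with total counts, 168 with no filter, 99 in the fit with a replicate block, and between 19 and 160 with a library left out (160 without HO-Malaka replicate 2, 28 without HO-Malaka replicate 3, 27 without AX-Malaka replicate 2, 19 without AX-Malaka replicate 3). Under the block, 226 genes were higher and 68 lower, of which 216 and 61 were among the 220 and 62. Same-numbered HO and AX libraries deviated from their group means with r of 0.0905, 0.0573 and 0.00964, and differently numbered ones with r between -0.0939 and 0.0356. Such r, taken over all genes with their counting error, cannot decide whether the replicate numbers pair the libraries, and pairing was not tested. The other alternatives gave 166 to 274 genes higher and 46 to 87 lower, and no named gene changed direction past the thresholds. The lowest of these counts, 166 and 46, came from the 6 Malaka libraries alone. Of 128 called genes named by the rule or for a difference between the soils, DESeq2 kept 121 calls and the fold threshold inside the model 46. Low counts limit fold changes at the 45 higher genes with 3 AX counts or fewer.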
